A study of Drosophila melanogaster with 47 samples.

Results

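Gene expression rhythms over the light-dark day were described in heads of *yw*, the wild-type control strain of *Drosophila melanogaster* in a study of *timeless* (*tim*) regulatory DNA. The *yw* samples are 11 of the 47 RNA-seq libraries of the series, and were taken by their strain label. All flies, male and female together, had been kept under 12 h of light and 12 h of darkness at 25 °C for 4 days. Heads were collected every 4 h at zeitgeber times (ZT) 2, 6, 10, 14, 18 and 22, with lights on from ZT0 to ZT12. *yw* has 2 libraries per time point, which the labels call independent biological replicates, except at ZT18, which has 1 library. The other 36 libraries come from 4 strains homozygous for a CRISPR deletion at *tim*, named for where the deletion lies and how many base pairs it removes: *tim_up126* (12 libraries), *tim_up122* (12), *tim_up10* (6, or 1 per time point) and *tim_in24* (6, or 1 per time point). The "up" deletions lie upstream of the transcription start and *tim_in24* lies in an intron. Fly ages are not given in the sources used here.

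The fly clock is a feedback loop in gene expression. The CLOCK (CLK) and CYCLE (CYC) proteins activate *period* (*per*) and *tim*, whose protein products enter the nucleus at night and repress CLK and CYC. In a second loop the products of *vrille* (*vri*) and *Pdp1*, both also activated by CLK and CYC, repress and activate *Clk*. In the head the loop runs in clock neurons and also in glia, photoreceptors and fat body, so that much of the RNA that cycles in a whole head comes from outside the brain's clock neurons. These flies were in light and dark cycles, so rhythms driven by light and rhythms driven by the clock cannot be told apart. In such bulk samples, fewer cells of a type and less RNA per cell also cannot be told apart.

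The *yw* libraries held 3902323 to 10230355 counts (median 5503956), against 1761896 to 8331354 in the deletion strains, so 1 count was worth at most 0.256 CPM, the unit of counts scaled to library size, in *yw*. Markers of head tissues were present in every *yw* library. The summed level of 9 neuronal genes was 4395 to 5230 CPM, that of 8 glial genes 2486 to 2934 CPM and that of 8 photoreceptor genes 40100.3 to 59043 CPM. Marker genes of female flies summed to 25589 to 64035 CPM and those of male flies to 542 to 1416 CPM. Markers of the gut, which a head sample should lack, summed to 176 CPM in ZT14 replicate 2 and 17.0 CPM in ZT2 replicate 2, and to at most 1.46 CPM elsewhere, with *lambdaTry* at 0 in all 11 libraries.

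A pair of *yw* libraries stood apart because they were nearly the same. A chi-square test compared the counts of ZT18 replicate 1 and ZT22 replicate 1 over 10211 genes and gave 1.21 per degree of freedom, where 1 is sampling noise alone. The other 54 pairs of *yw* libraries gave 5.47 to 42.6, and pairs of the same time point among them gave 5.47 to 12.5. By this measure ZT22 replicate 1 was closer to the ZT18 library than to its own replicate, against which it gave 10.2. The median absolute log2 difference per gene was 0.087 between these libraries and 0.12 to 0.203 in the other *yw* pairs, over 8938 genes at 5 CPM or more. Both carry different time labels, and the counts do not say which label is right. The main results below are therefore given with the 11 libraries and without both libraries. Counts of rhythmic genes per list are also given without ZT22 replicate 1 where they differ. Leaving out both leaves no library at ZT18 and 1 at ZT22.

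**Figure D1:**
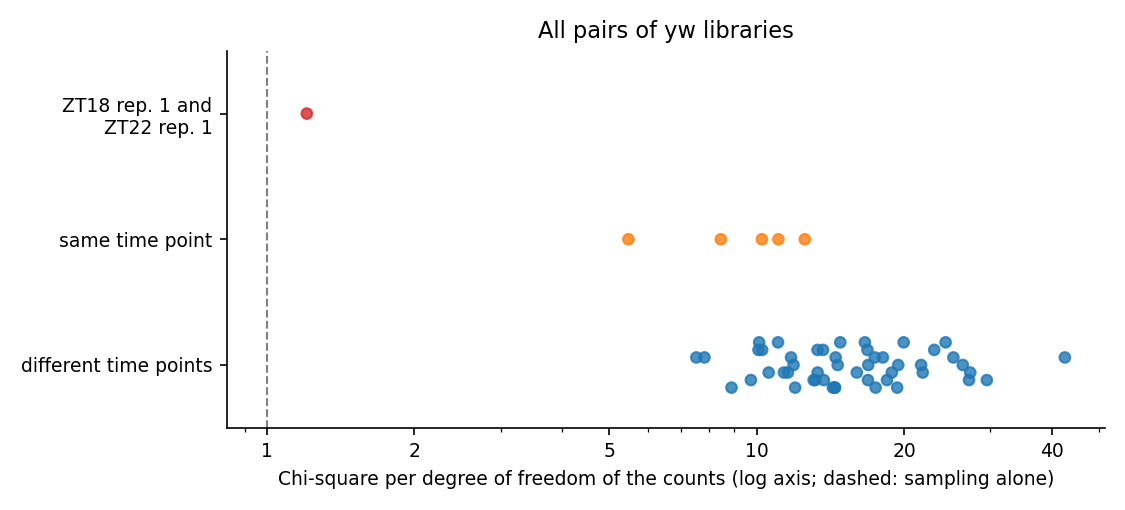
Chi-square per degree of freedom (logarithmic axis) between the counts of pairs of libraries, where 1 is sampling noise. The pair of *yw* ZT18 replicate 1 and ZT22 replicate 1 lies at 1.21, below the other *yw* pairs, which start at 5.47.

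The clock genes checked the *yw* libraries against their labels. *tim* (2L: 3493986 to 3508119, minus strand, in dm6) had 110.3 and 148 CPM at ZT2, 181 and 201 at ZT6, 984 and 928 at ZT10, 1904 and 1936 at ZT14, 1489 at ZT18, and 1535 and 448 at ZT22. *per* (X: 2685580 to 2692780, plus strand) had 32.7 and 44.4 CPM at ZT2, 51.8 and 67.6 at ZT6, 157 and 152 at ZT10, 319.6 and 309.6 at ZT14, 216 at ZT18, and 211 and 41.7 at ZT22. Replicates lay close together up to ZT14 and did not at ZT22, where replicate 1 had the level of the ZT18 library in both genes. *Clk* (3L: 7763233 to 7775603, minus strand), the gene of the activator itself, ran the other way, with 60.4 and 60.3 CPM at ZT2, 62.3 and 54.0 at ZT6, 25.4 and 30.9 at ZT10, 8.49 and 8.17 at ZT14, 19.9 at ZT18, and 21.3 and 92.9 at ZT22. All 9 clock genes examined were closer in ZT22 replicate 1 to ZT18 replicate 1 than to ZT22 replicate 2.

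Of these 9 clock genes, 8 passed the test of a 24 h cosine and sine against a flat level, whether or not the pair of libraries was included, where 15.6% of all genes tested passed. The amplitude given here is the log2 distance from the mean level to the fitted peak, so an amplitude of 1 is a peak 2-fold above the mean level, and the phase is the time of that peak. *tim* had an amplitude of 2.05 ± 0.29 (SE, n = 11 libraries) and a phase of ZT15.7 ± 0.51 h, which is a 17.3-fold range between peak and trough (edgeR quasi-likelihood test, Benjamini-Hochberg adjusted p = 0.00122). *vri*, which encodes a repressor of *Clk*, had an amplitude of 1.82 ± 0.29 and a phase of ZT14.5 (adjusted p = 0.00211). For *per* these were 1.49 ± 0.26 and ZT14.9 (adjusted p = 0.00195), and for *Pdp1* 1.07 ± 0.14 and ZT15.8 (adjusted p = 0.00032). The 4 genes peaked together in the early night. *CG31324*, the fly *Cipc* gene (0.74 ± 0.10), and *clockwork orange* (*cwo*, 0.48 ± 0.06), both of which encode repressors of CLK and CYC, peaked at ZT14.9 and ZT14.6 with smaller amplitudes.

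The 2 clock genes with morning peaks were *Clk* and *cryptochrome* (*cry*), which encodes the blue-light receptor of the clock. *Clk* had an amplitude of 1.36 ± 0.28 and a phase of ZT2.85 ± 0.78 h (adjusted p = 0.00979), and *cry* 1.07 ± 0.20 and ZT4.91 ± 0.65 h (adjusted p = 0.00277). *cry* was at 319 and 248 CPM at ZT2, 287 and 242 at ZT6, 205 and 181 at ZT10, 94.6 and 83.5 at ZT14, 64.7 at ZT18, and 72.8 and 216 at ZT22. *cyc*, whose product is the partner of CLK, ran between 35.7 and 41.3 CPM and did not pass the test (amplitude 0.07, adjusted p = 0.484). The reference gene *RpL32* did not pass either (amplitude 0.01, adjusted p = 0.977).

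ZT22 replicate 1 was left out because its clock genes look earlier than its label, so a closer fit of the clock genes without it follows from that choice and is given as a description. The share of the variance that the curve took up was 0.867 with 11 libraries and 0.983 without that library for *tim*, and 0.833 and 0.99 for *vri*. Phases of the 8 genes that passed were earlier by 0.595 to 0.832 h, and *tim* peaked at ZT14.9, *per* at ZT14.1, *vri* at ZT13.7 and *Clk* at ZT2.24. Amplitudes hardly moved, to 2.06 for *tim*, 1.57 for *per*, 1.95 for *vri* and 1.41 for *Clk*.

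**Figure D2:**
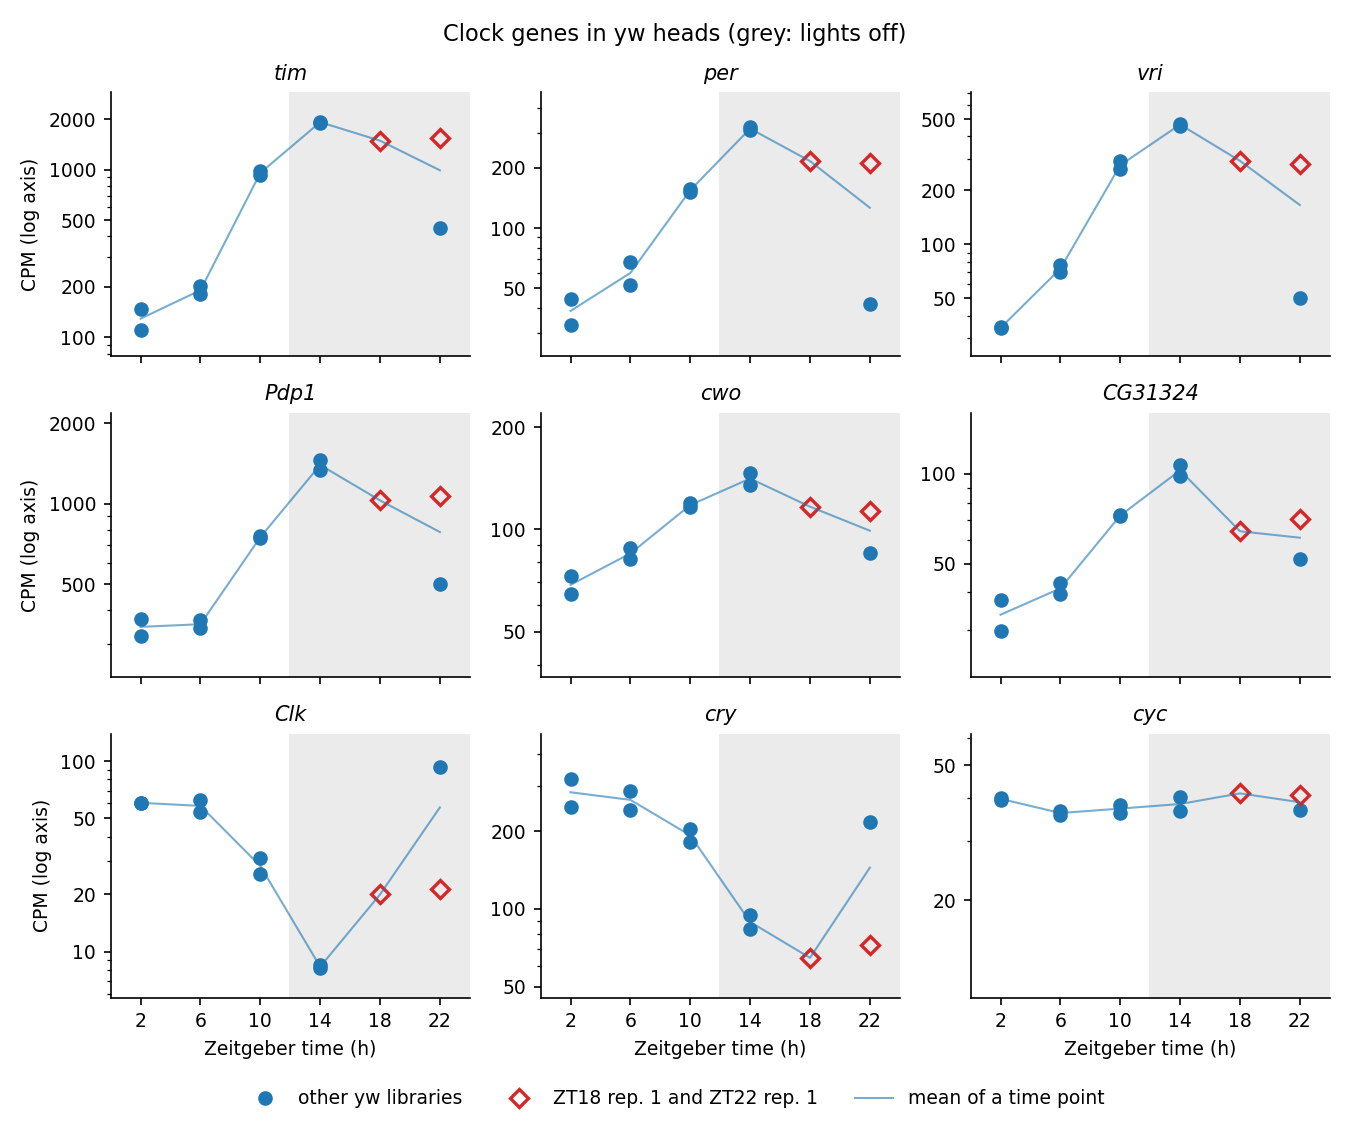
CPM (logarithmic axis) of 9 clock genes in the 11 *yw* libraries by zeitgeber time (h), with lights-off hours in grey. A line joins the means of the time points, and ZT18 replicate 1 and ZT22 replicate 1 are red diamonds. The ZT22 diamond of *tim* is at 1535 CPM and the other ZT22 library at 448 CPM, and *cyc* stays between 35.7 and 41.3 CPM.

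Across the genome, 1720 of 11027 genes tested (15.6%) had a 24 h rhythm in *yw*. Without ZT22 replicate 1 the number was 1294 (11.7%), of which 1250 were shared with the full set, that is 72.7% of the calls with 11 libraries and 96.6% of the calls without that library. Without ZT18 replicate 1 it was 1256 (11.4%), and without both 810 (7.35%). The 735 genes that passed in all 4 versions (6.67%) are the rhythms that rested on neither library of the pair. Most rhythms were shallow, since the median amplitude was 0.34 among genes that passed, a 1.6-fold range from trough to peak, and 0.14 over all genes tested. An amplitude of 1 or more was found for 153 of the 1720 genes, and 99 of those passed in all 4 versions. A test of the 6 time points as separate levels, with no assumed curve, passed 731 genes, 682 of them among the 1720.

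With all 11 libraries, the fitted peaks fell mostly into 2 windows, ZT3 to ZT9 and ZT18 to ZT21. By 6-h windows, 480 genes peaked from ZT0 to ZT6 (4.35% of all tested), 468 from ZT6 to ZT12 (4.24%), 249 from ZT12 to ZT18 (2.26%) and 523 from ZT18 to ZT24 (4.74%). Without both libraries of the pair the numbers were 292, 158, 166 and 194. The numbers for ZT6 to ZT12 and ZT18 to ZT24 fell the most. The pair supplied the 2 highest libraries in 221 of the 523 genes that peaked from ZT18 to ZT24 (42.3%), and the 2 lowest in 146 of the 468 that peaked from ZT6 to ZT12 (31.2%). Over the 1250 shared genes, leaving out ZT22 replicate 1 moved 989 phases earlier and 261 later, by a median of -0.186 h, against a median phase SE of 0.752 h.

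**Figure D3:**
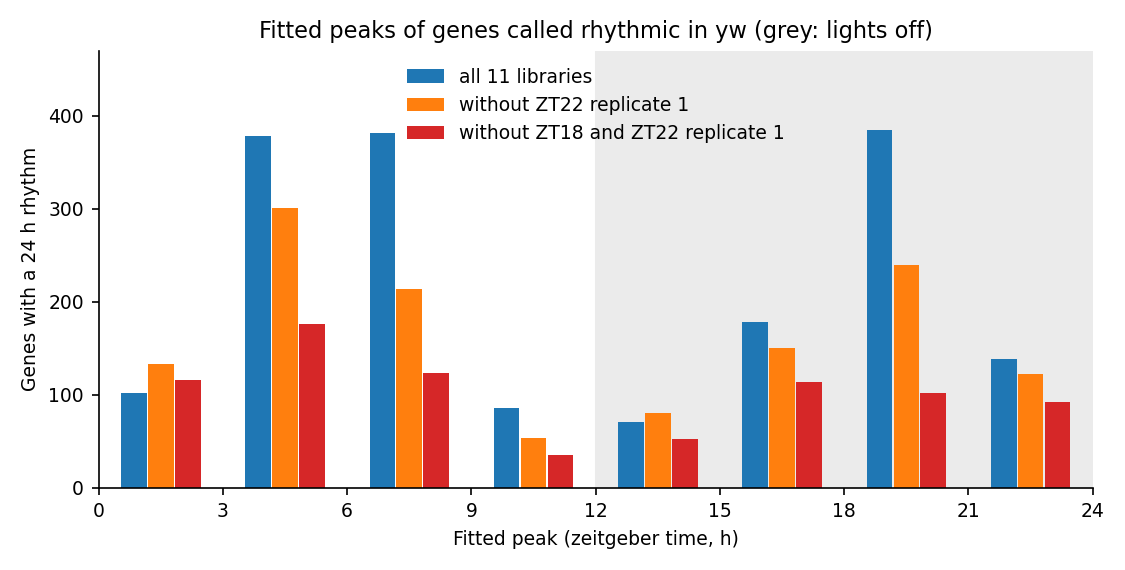
Number of genes with a 24 h rhythm in *yw* by fitted peak time in 3-h bins, with all 11 libraries, without ZT22 replicate 1, and without both libraries of the near-identical pair. From ZT18 to ZT21 the bars stand at 385, 240 and 102 genes, and from ZT3 to ZT6 at 378, 301 and 176.

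Among the 10 genes with the smallest p, 5 peaked in the light and 5 in the second part of the night. *CG17005* (2L: 9327744 to 9330332, plus strand) had 31.0 and 32.4 CPM at ZT2, 81.7 and 61.0 at ZT6, 48.7 and 49.6 at ZT10, 13.2 and 13.5 at ZT14, 8.75 at ZT18, and 10.3 and 7.27 at ZT22. It peaked at ZT6.8 ± 0.22 h with an amplitude of 1.70 ± 0.11 (adjusted p = 7.28e-07), and the noncoding genes *lncRNA:CR45456* (1.86, ZT7.07) and *lncRNA:CR45457* (2.12, ZT7.13) had nearly the same phase. The noncoding genes were scarce, with 18.4 CPM as the highest value of *lncRNA:CR45457*. *Xrp1*, which encodes a transcription factor of the stress response, peaked at ZT6.79 with an amplitude of 0.51, and *Inos*, which encodes the first enzyme of inositol synthesis, at ZT10.6 with 0.53.

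The night genes of that set were mostly genes of photoreceptors. *Pkc53E*, a protein kinase C gene, had 265 and 278 CPM at ZT2, 181 and 194 at ZT6, 184 and 182 at ZT10, 257 and 240.0 at ZT14, 356 at ZT18, and 361 and 364 at ZT22. All 3 libraries of ZT18 and ZT22 were above every other library (amplitude 0.55 ± 0.02, ZT20.4 ± 0.12 h, adjusted p = 2.33e-06). *Culd*, whose product takes part in the traffic of photoreceptor membrane proteins, peaked at ZT21.6 with an amplitude of 0.79. *Xport-A* and *Xport-B*, both needed to bring the TRP channel and rhodopsin to the membrane, peaked at ZT18.4 with an amplitude of 0.97 each. The 2 *Xport* genes overlap and had nearly the same counts, so they are 1 measurement. *CG4168* peaked at ZT19.1 with 0.71. All 10 genes passed without both libraries of the pair, with adjusted p of at most 0.000361.

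Functions were compared by 36 gene lists, each with its count beside the 15.6% of all genes tested. Genes of phototransduction, the cascade that turns light into a receptor potential in the eye, passed in 16 of 22 cases (72.7%), 12 of them with peaks from ZT18 to ZT24. Their median amplitude was 0.35 over the 22 genes, against 0.14 over all genes tested. The count was 16 without ZT22 replicate 1 and 14 without both libraries. *inaD*, which encodes the scaffold of the signalling complex, had 961 and 756 CPM at ZT2, 471 and 394 at ZT6, 282 and 209.7 at ZT10, 364 and 309.8 at ZT14, 731 at ZT18, and 742 and 1015 at ZT22. Its amplitude of 0.97 ± 0.10 and phase of ZT22.8 placed the peak just before dawn (adjusted p = 6.7e-05). *inaF-B*, required for TRP channel function, peaked at ZT19.3 (0.73 ± 0.08).

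The channel gene *trpl* peaked apart from most members of the cascade. It had 3229.7 and 3202 CPM at ZT2, 4373 and 3929 at ZT6, 4985 and 4245 at ZT10, 4206 and 3989 at ZT14, 2541 at ZT18, and 2488 and 2646 at ZT22 (ZT9.31, amplitude 0.45 ± 0.05, adjusted p = 0.000271). Of 7 rhodopsin genes, 4 passed, with 3 passing without ZT22 replicate 1 and 3 without both libraries. *Rh5*, the blue-sensitive rhodopsin of inner photoreceptors, peaked at ZT15.2 (0.42 ± 0.07), and *Rh6*, its green-sensitive neighbour, at ZT11.6 (0.27 ± 0.05). *ninaE*, the main rhodopsin gene of the outer photoreceptors, ran between 22038 and 27791 CPM and did not pass. Of 8 genes of carotenoid uptake, the retinoid cycle and rhodopsin folding, 6 passed, 5 without ZT22 replicate 1 and 3 without both libraries. *ninaD*, which encodes the receptor that takes up carotenoids, was highest at ZT2 with 82.1 and 92.4 CPM and lowest at ZT22 with 19.4 and 19.2 CPM (ZT5.18, 0.90 ± 0.25).

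Histamine is the transmitter of fly photoreceptors and is recycled through glia, and 5 of 8 of its genes passed. *Hdc*, which encodes the synthesizing enzyme, had 108 and 109 CPM at ZT2, 56.5 and 48.1 at ZT6, 55.1 and 47.9 at ZT10, 85.4 and 79.7 at ZT14, 125 at ZT18, and 130.2 and 138 at ZT22 (ZT20.7, 0.78 ± 0.07, adjusted p = 3.05e-05). *tan* (*t*), which encodes the enzyme that releases histamine from its stored form, peaked at ZT23.1 with an amplitude of 0.97 ± 0.10 and ran between 160.4 CPM at ZT10 and 770.1 CPM at ZT22. *ebony* (*e*), which encodes the glial enzyme that makes the stored form, peaked later, at ZT3.65, with replicates that lay far apart at ZT2 (94.7 and 51.6 CPM). *Hdc* and *t* passed in all 4 versions. The count of the list was 3 without ZT2, ZT6, ZT14 or ZT18 replicate 1 or without ZT14 replicate 2. It was also 3 without both libraries of the pair. Of 18 genes of the dopamine, serotonin and octopamine pathways, 2 passed, and only *ple*, the tyrosine hydroxylase gene of dopamine synthesis, did so in all 4 versions (ZT1.83, 0.74 ± 0.17). Without ZT22 replicate 1 or without both libraries, 1 of the 18 passed. Of 17 eye pigment genes, 2 passed, and 1 without ZT22 replicate 1 or without both libraries.

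Rhythmic genes of glutathione and sugar conjugation peaked mostly in the morning. Of 32 glutathione *S*-transferase genes, 12 passed (37.5%), 11 of them with peaks from ZT0 to ZT6, with 15 passing without ZT22 replicate 1 and 10 without both libraries. *GstZ2* had 89.0 and 66.3 CPM at ZT2, 82.7 and 76.1 at ZT6, 43.3 and 39.4 at ZT10, 21.0 and 22.7 at ZT14, 33.3 at ZT18, and 35.2 and 51.2 at ZT22 (ZT3.7, 0.94 ± 0.11, adjusted p = 0.000123). Every light-phase library of *GstZ2* at ZT2 and ZT6 was above every other one. Of 19 genes of UDP-glycosyltransferases, which couple sugars to small molecules, 10 passed, 8 of them from ZT0 to ZT6, with 10 passing without ZT22 replicate 1 and 9 without both libraries. *Ugt35B1* had 315 and 259.8 CPM at ZT2, 27.5 and 36.5 CPM at ZT14 and 95.8 and 332 CPM at ZT22 (ZT2.54, 1.40 ± 0.26).

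Cytochrome P450 genes, enzymes of detoxification and hormone metabolism, passed in 24 of 78 cases (30.8%), in 18 without ZT22 replicate 1 and in 12 without both libraries. Of these 24, 11 peaked from ZT0 to ZT6, 8 from ZT6 to ZT12 and 5 later. *Cyp6g1*, known for insecticide resistance, had 429.8 and 315 CPM at ZT2, 437 and 348 at ZT6, 267 and 292 at ZT10, 179.5 and 161 at ZT14, 196 at ZT18, and 192 and 208 at ZT22 (ZT4.95, 0.67 ± 0.09). *Cyp18a1*, which encodes an enzyme that inactivates ecdysone, peaked instead at ZT16.8 (0.93 ± 0.13). Of 15 genes of glutathione synthesis and redox defence, 9 passed, 7 without ZT22 replicate 1, and 5 without both libraries or without ZT18 replicate 1 alone.

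Antimicrobial peptide genes, which are induced in fat body and hemocytes upon infection, had large amplitudes in these flies. Of 15 genes tested, 9 passed, all with peaks between ZT4.58 and ZT5.73 and amplitudes of up to 1.90, with 8 passing without ZT22 replicate 1 and 7 without both libraries. *Drosocin* (*Dro*) had 491 and 364 CPM at ZT2, 470 and 575 at ZT6, 48 and 241 at ZT10, 48.2 and 66.7 at ZT14, 55.9 at ZT18, and 55 and 61.1 at ZT22 (ZT4.82, 1.90 ± 0.37, adjusted p = 0.00118). The ZT2 and ZT6 libraries were all above the rest, and the ZT10 replicates lay far apart. *DptA* (ZT5.01, 1.88 ± 0.35) and *AttC* (ZT4.58, 1.80 ± 0.39) showed the same split at ZT10, with 50.8 and 259 CPM for *DptA* and 42.2 and 273 CPM for *AttC*. Of 10 genes of peptidoglycan recognition proteins, which detect bacterial cell walls, 4 passed, also without both libraries, and *PGRP-SC2* had the highest amplitude of them (ZT4.92, 1.67).

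The Bomanins and other immune-induced peptides, short secreted peptides of the Toll response, passed in 14 of 16 cases (87.5%), with peaks between ZT5.15 and ZT10.8. The number was 11 without ZT22 replicate 1 and 5 without both libraries. *IM1* had 83.6 and 73.2 CPM at ZT2, 155 and 135 at ZT6, 91.3 and 164 at ZT10, 108 and 76.9 at ZT14, 64.4 at ZT18, and 56.7 and 50.4 at ZT22 (ZT8.36, 0.70 ± 0.13, adjusted p = 0.00145). *IM18* peaked at ZT5.15 (1.53 ± 0.31) and had the same counts as *CG10332*. Summed markers of hemocytes, the blood cells, ran between 254 and 353 CPM, and 0 of their 5 genes passed by edgeR. Markers of fat body and of female flies moved with the split between the ZT10 replicates. The 8 fat body markers summed to 29671 CPM in ZT10 replicate 1, the lowest *yw* library, and 61628 CPM in replicate 2, and ran up to 70701 CPM elsewhere, and 3 of the 8 passed. The 4 female markers, 3 of which are also in the fat body list, summed to 25589 and 55154 CPM in the ZT10 replicates. Their part in the immune gene values was not tested. Of 4 *Turandot* genes, small secreted proteins of the stress response, 0 passed by edgeR, DESeq2 or limma, with 3 at an unadjusted p under 0.05.

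Chaperone genes peaked around the middle of the light phase. Of 19 heat shock genes, 9 passed, with peaks between ZT4.65 and ZT8.92, 8 without ZT22 replicate 1 and 7 without both libraries. *Hsp83*, the fly HSP90, had 1273 and 1149 CPM at ZT2, 1165 and 1125 at ZT6, 979 and 818 at ZT10, 704 and 647 at ZT14, 634 at ZT18, and 634 and 686 at ZT22 (ZT5.16, 0.53 ± 0.07, adjusted p = 0.000709). *Hsp22*, a small mitochondrial chaperone, was highest at ZT10 with 102 and 142 CPM and lowest in ZT22 replicate 2 with 10.9 CPM (ZT8.92, 1.30 ± 0.28), and had nearly the same counts as *CG4456*. Genes of protein folding in the endoplasmic reticulum passed in 10 of 16 cases, with peaks between ZT5.87 and ZT9.2 and amplitudes of 0.18 to 0.36. The number was 5 without ZT22 replicate 1, 6 without ZT18 or ZT6 replicate 1 and 2 without both libraries, and in 7 of the 10 the pair were the 2 lowest libraries. *Hsc70-3*, the fly BiP, peaked at ZT6.28 (0.36 ± 0.07, adjusted p = 0.0769 without both), and *Gp93*, the fly GRP94, at ZT6.86 (0.36 ± 0.05, adjusted p = 0.0255 without both).

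Genes of sugar and lipid metabolism also peaked mostly in the light. Of 26 genes of sugar metabolism, 11 passed, 10 of them with peaks from ZT0 to ZT12, with 8 passing without ZT22 replicate 1 and 5 without both libraries. The number was 7 without either ZT2 library, ZT6 replicate 1 or ZT22 replicate 2, and 6 without ZT18 replicate 1. *Ldh*, lactate dehydrogenase, had 17.6 and 15.3 CPM at ZT2, 25.8 and 44.1 at ZT6, 83.5 and 82.9 at ZT10, 13.0 and 18.9 at ZT14, 17.8 at ZT18, and 16.0 and 8.73 at ZT22 (ZT8.8, 1.17 ± 0.30, adjusted p = 0.00473). Both ZT10 libraries stood far above the others, a shape narrower than a cosine. *Pepck1*, a gene of gluconeogenesis, peaked at ZT6.58 (0.61 ± 0.12) and did not pass without both libraries (adjusted p = 0.0619).

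Of 21 genes of lipid synthesis and storage, 8 passed, all with peaks from ZT0 to ZT12, but 6 had the pair as their 2 lowest libraries, with 6 passing without ZT22 replicate 1 and 2 without both. The number was 3 without ZT6 replicate 2 and 3 without ZT18 replicate 1. The 2 were *mdy*, which encodes the last enzyme of triacylglycerol synthesis, and *SREBP*, the regulator of lipid synthesis genes. *SREBP* had 340.1 and 334 CPM at ZT2, 413 and 422 at ZT6, 402 and 412 at ZT10, 392 and 366 at ZT14, 264 at ZT18, and 257 and 264 at ZT22 (ZT8.62, 0.37 ± 0.04, adjusted p = 0.000278). Of 13 amylase and maltase genes, 3 passed, and 1 without ZT22 replicate 1 or without both libraries. *Mal-A8* had 5.12 CPM in ZT14 replicate 2, the library with the most gut markers, and at most 0.093 CPM in the other 10 *yw* libraries. Without that library *Mal-A8* and *Mal-A7* did not pass (adjusted p = 0.598 and 0.269).

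**Figure D4:**
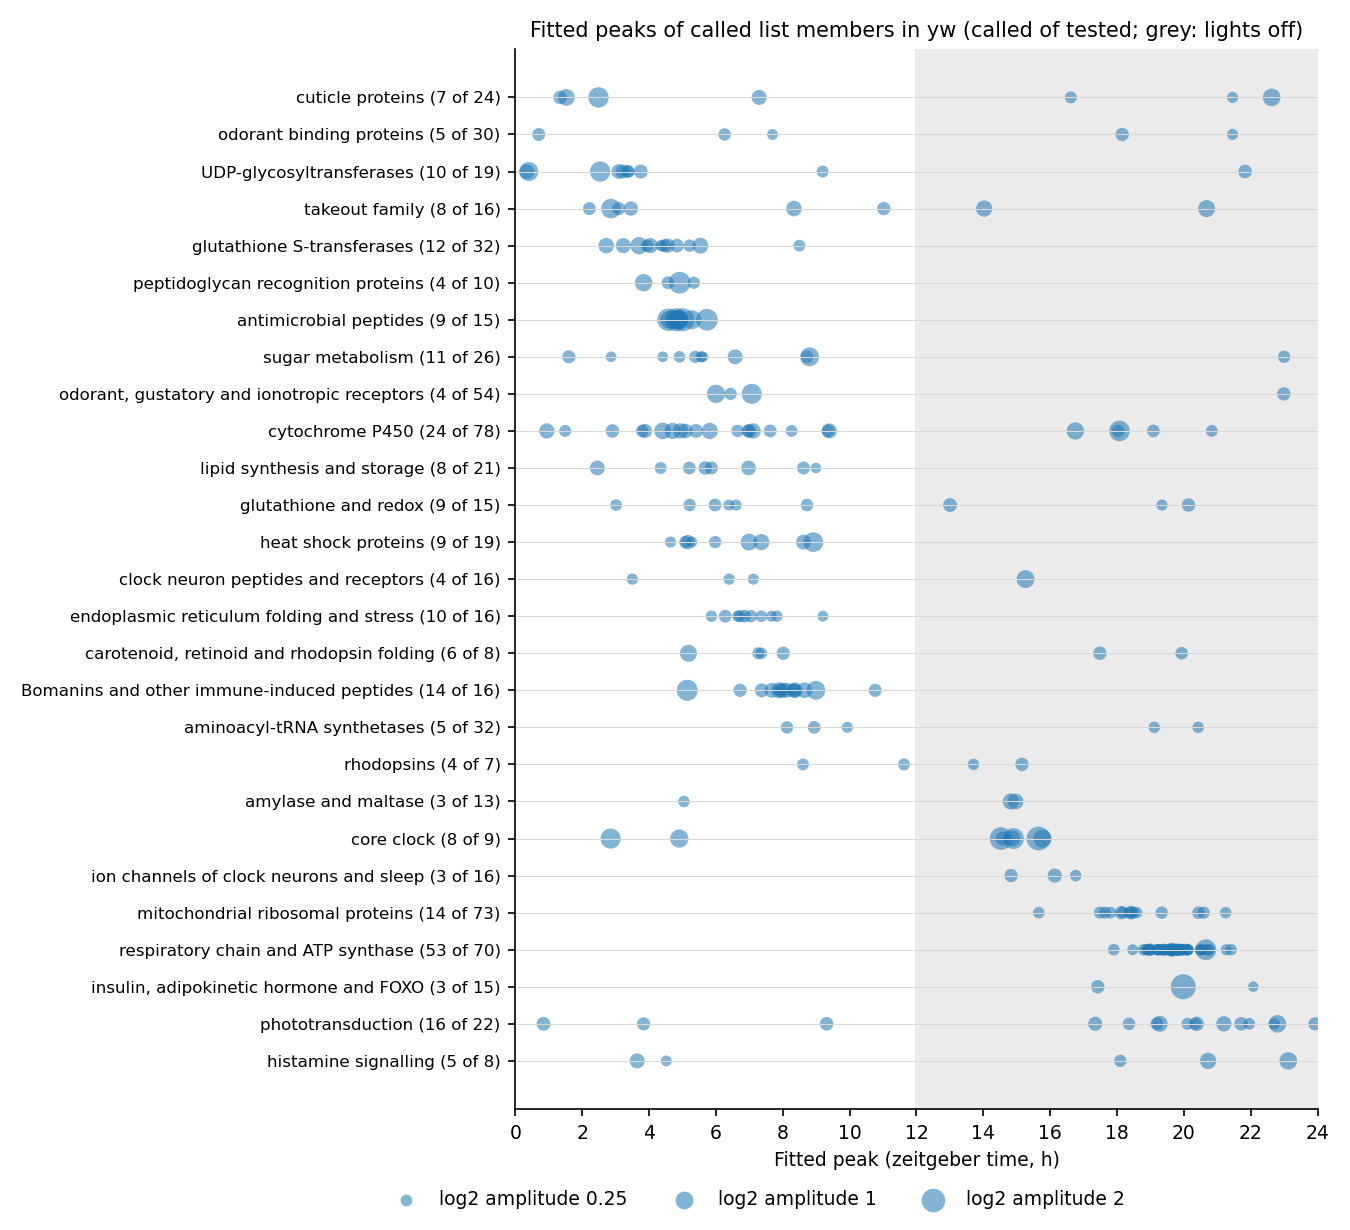
Fitted peak time (ZT, h) of the genes that passed the rhythm test in *yw*, by gene list, with dot size giving the log2 amplitude and lights-off hours in grey. Antimicrobial peptides lie between ZT4.58 and ZT5.73, and genes of the respiratory chain and ATP synthase between ZT17.9 and ZT21.4.

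Genes linked to the core clock and its outputs were mixed. Of 16 kinases, phosphatases and degradation factors of PER and TIM, 2 passed (12.5%), which is near the share of all genes. The number was 1 without ZT22 replicate 1 or without both libraries. *Usp8*, which encodes a ubiquitin protease, was the stronger of them, with 56.5 and 58.5 CPM at ZT2, 68.3 and 72.6 at ZT6, 197 and 154 at ZT10, 233 and 251 at ZT14, 131 at ZT18, and 134 and 51.4 at ZT22 (ZT14.0, 1.04 ± 0.16, adjusted p = 0.000871). Its ZT22 replicates were split as those of *per* were. Of 10 RNA-level regulators of *per* and *tim*, 0 passed by edgeR, DESeq2 or limma, with 1 at an unadjusted p under 0.05.

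Among 16 peptides and receptors of clock neurons, 4 passed, 3 without ZT22 replicate 1 and 2 without both libraries. The neuropeptide gene *CNMa* was scarce and peaked at ZT15.3 (1.02 ± 0.28), and did not pass when any library of ZT2, ZT6 or ZT14 was left out (adjusted p of 0.0503 to 0.0762). *Pdf*, the main transmitter of the ventral clock neurons, had an amplitude of 0.21 and ran between 70.5 and 103 CPM (adjusted p = 0.164 without both libraries of the pair). Of 16 ion channel genes linked to clock neurons and sleep, 3 passed (18.8%), near the share of all genes, with peaks between ZT14.8 and ZT16.8. The number was 2 without ZT22 replicate 1 or without both libraries. *Slob*, which encodes a partner of the Slowpoke potassium channel, had 644 and 689.5 CPM at ZT14 and 302 to 379 CPM at ZT2 and ZT6 (ZT16.1, 0.52 ± 0.12). In the *takeout* family of secreted binding proteins, 8 of 16 genes passed, with phases spread from ZT2.22 to ZT20.7. The number was 9 without ZT22 replicate 1 and 6 without both libraries of the pair. *takeout* (*to*) itself peaked at ZT20.7 (0.88 ± 0.24) and was highest in ZT22 replicate 2 with 278 CPM, against 128 CPM in replicate 1 (adjusted p = 0.171 without both ZT22 libraries). The count of the family was 5 without either ZT2 library or ZT14 replicate 2. Of 7 activity-regulated genes, *Hr38* passed (ZT5.81, 0.55 ± 0.12), with 31.6 to 35.1 CPM at ZT2 to ZT10 and 14.5 to 21.4 CPM at ZT14 to ZT22.

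Nuclear genes of the respiratory chain and ATP synthase had the most calls of the 36 lists and nearly a single phase, and most of these calls depended on the pair of libraries. Of 70 genes, 53 passed (75.7%), 52 of them with peaks from ZT18 to ZT24, with a median amplitude of 0.21. By complex, 23 of 34 passed for complex I, 4 of 4 for complex II, 6 of 8 for complex III, 9 of 12 for complex IV and 11 of 12 for ATP synthase. The number was 41 without ZT22 replicate 1, 37 without ZT18 replicate 1 and 5 without both, and in 46 of the 53 (86.8%) the pair were the 2 highest libraries. *ATPsynB*, a stalk subunit of ATP synthase, had 288 and 297 CPM at ZT2, 248 and 241 at ZT6, 282 and 273 at ZT10, 308 and 299 at ZT14, 367 at ZT18, and 381 and 363 at ZT22 (ZT19.4, 0.30 ± 0.03, adjusted p = 0.000703, and 0.0166 without both). ZT22 replicate 2, which is not of the pair, was also above all ZT2 to ZT14 libraries for *ATPsynB* and for *ND-B18*, a complex I subunit, at 58.4 CPM against 36.0 to 49.0 CPM from ZT2 to ZT14.

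Muscle markers moved with this group. All 6 passed the rhythm test, and their summed level was 3483 CPM in ZT18 replicate 1 and 3489 CPM in ZT22 replicate 1, against 1955 to 3028 CPM in the other 9 *yw* libraries. *TpnC4*, a troponin of flight muscle, had 16.5 and 15.0 CPM in the pair and at most 3.64 CPM elsewhere, and *Act88F*, the flight muscle actin, 28.7 and 26.1 CPM against at most 9.51 CPM. Without both libraries only *up*, the troponin T gene, passed (adjusted p = 0.0444). The part of muscle RNA in the respiratory chain result was not tested. Of 73 mitochondrial ribosomal protein genes, 14 passed, with peaks between ZT15.7 and ZT21.2, and 0 passed without both libraries. When 1 library was left out the number fell to 4 without ZT18 replicate 1, 6 without ZT22 replicate 1, 7 without ZT6 replicate 2, 8 without ZT10 replicate 2 and 9 without ZT2 replicate 1.

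**Figure D5:**
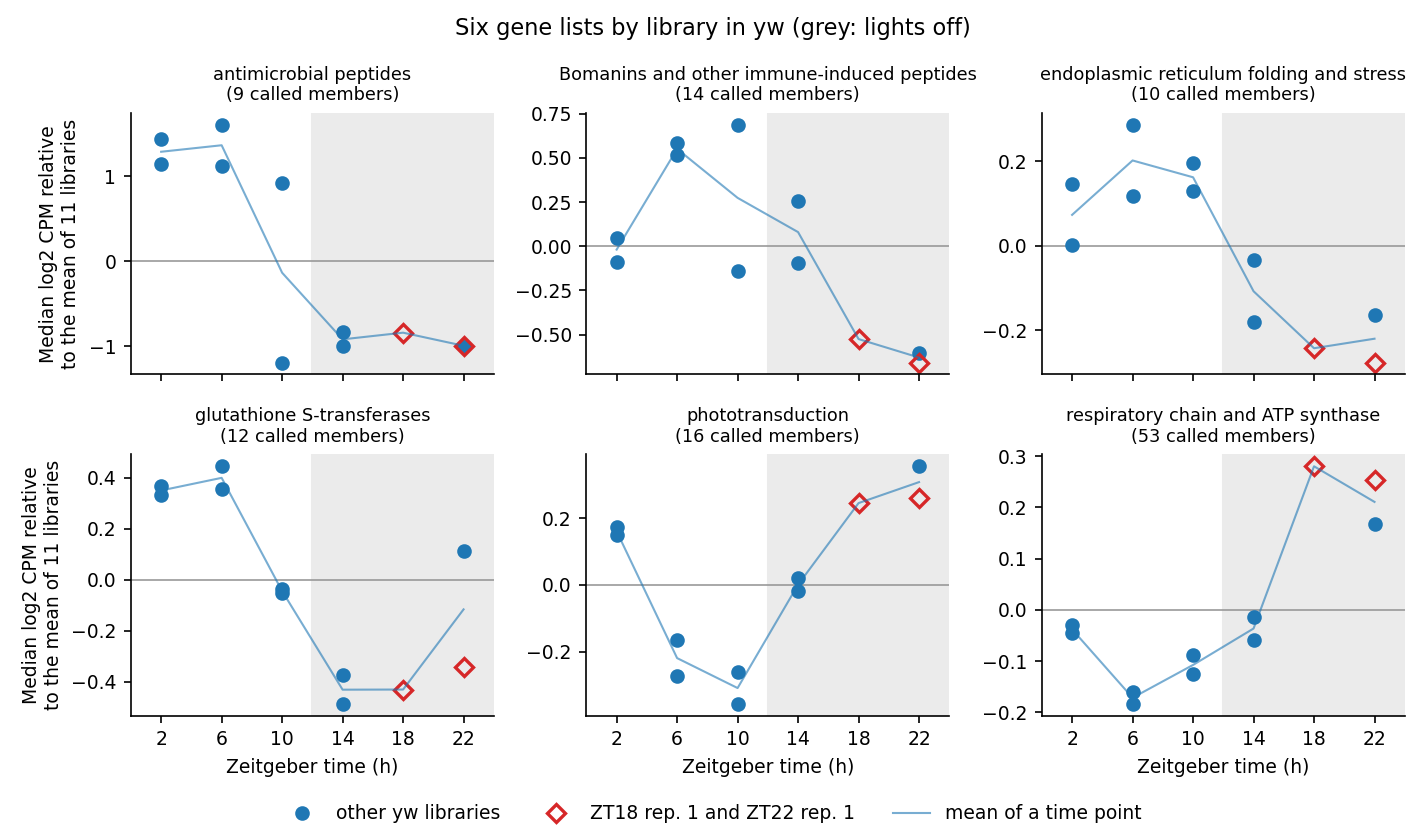
Median log2 level relative to the mean of *yw* over the genes that passed in 6 lists, by library and zeitgeber time (h), with ZT18 replicate 1 and ZT22 replicate 1 as red diamonds. For the respiratory chain and ATP synthase the pair stand at 0.28 and 0.25 and ZT22 replicate 2 at 0.17.

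The cytosolic ribosome and the proteasome were flat. Of 85 cytosolic ribosomal protein genes, 0 passed by edgeR, DESeq2 or limma, with 2 at an unadjusted p under 0.05, and their median amplitude was 0.04. Of 34 proteasome genes, 0 passed by any of these tools, with 2 at an unadjusted p under 0.05, and the median amplitude was 0.07. Of 32 aminoacyl-tRNA synthetase genes, 5 passed (15.6%), the share of all genes, and 2 or 3 without replicate 2 of ZT2, ZT6, ZT10 or ZT22 or replicate 1 of ZT18 or ZT22. Among 54 odorant, gustatory and ionotropic receptors 4 passed, and 2 without both libraries of the pair. Among 30 odorant binding proteins 5 passed, or 2 to 3 without ZT2 replicate 2 or any library of ZT6, ZT18 or ZT22. The number was 2 without both libraries of the pair. Of 15 nuclear receptor genes, 1 passed, and 0 without ZT22 replicate 1 or without both libraries. Of 15 insulin, adipokinetic hormone and FOXO genes, 3 passed, 2 without ZT22 replicate 1 and 1 without both. Of 24 cuticle protein genes, 7 passed, led by *Cpr66D* (ZT2.49, 1.42 ± 0.23). The number was 5 without ZT22 replicate 1, 4 without ZT14 replicate 2 and 3 without both. The called odorant binding protein gene *Obp57d* and cuticle protein gene *Cpr57A* had the same values in all 11 *yw* libraries and are 1 measurement.

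The highest amplitudes were taken from each 6-h window. From ZT0 to ZT6, *CG43920* (2.04, ZT5.16), *Lsp2* (2.01, ZT4.6), *CG13305* (1.98, ZT1.97) and *Dro* led. *Lsp2*, which encodes a storage protein of the fat body, had 543 to 1642 CPM at ZT2 and ZT6 and 47.5 to 146 CPM from ZT10 on. It overlaps the antisense gene *asRNA:CR11538*, which had nearly the same values, and the strand setting of the counting is not given in the sources used here. From ZT12 to ZT18, *dusky* (*dy*), which encodes a membrane protein of cuticle-forming cells, had 22.7 and 24.3 CPM at ZT14, 22.4 at ZT18, and 21.7 and 3.15 at ZT22, against at most 2.04 CPM from ZT2 to ZT10 (ZT17.8, 2.45 ± 0.48). *cypher* (*cyr*), a related gene, peaked at ZT15.7 (1.82 ± 0.32). *snoRNA:Or-CD16*, with an amplitude of 1.92, lies within *tim* and followed its values. *Mdr50*, a transporter gene, led the window ZT6 to ZT12 with *CG17005* and its noncoding neighbours (ZT7.44, 1.42 ± 0.20).

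The window ZT18 to ZT24 was led by 5 genes that were nearly absent from most libraries. *CG34324* (amplitude 5.41, ZT19.4) had 48.9 CPM in ZT2 replicate 2, 302 in ZT14 replicate 2, 391 in ZT18 replicate 1, and 379 and 69.1 at ZT22, and at most 0.5 CPM in the other 6 *yw* libraries. *Muc68D*, *CG34220* and *CG14645* were high in the same libraries, and *CG16826* had 271 and 268 CPM in the pair, 20.5 CPM in ZT14 replicate 1 and at most 3.15 CPM elsewhere. *Akh*, the adipokinetic hormone made in cells attached to the foregut, had 5.58 CPM in ZT2 replicate 2, 4.27 in ZT14 replicate 2, 9.73 at ZT18, and 9.60 and 6.06 at ZT22, and at most 0.22 CPM elsewhere. All 4 ZT6 and ZT10 libraries of *CG34324* and *Akh* were near 0 and all 3 ZT18 and ZT22 libraries raised, while the replicates of ZT2 and of ZT14 were split. *CG16826* was split the other way at ZT14, with 1.22 CPM in replicate 2. None of these 6 genes passed without both libraries of the pair, with adjusted p of 0.0568 for *CG16826*, 0.0951 for *CG34220*, 0.105 for *CG34324*, 0.141 for *CG14645*, 0.159 for *Akh* and 0.161 for *Muc68D*. *CG14645* and *Muc68D* also failed without ZT22 replicate 1 alone (adjusted p = 0.0554 and 0.0659) and without ZT18 replicate 1 alone (0.0509 and 0.0593). Both failed without either ZT6 library, and *Muc68D* without either ZT10 library. The part of tissue carried over with the heads in these values was not tested.

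The *yw* rhythm differed from that of the 4 deletion strains as a group in 353 of 11027 genes (3.2%), by the interaction of cosine and sine with the strain group. In 327 of them (2.97% of all tested) the amplitude was larger in *yw*, and in 26 smaller. The number was 243 without ZT22 replicate 1 (2.2%), 233 of them shared, and 144 without both libraries of the pair. It fell further when ZT6 replicate 2 was left out, to 193, and was 233 without ZT6 replicate 1. Against *tim_up10* and *tim_in24* alone it was 16, and against *tim_up126* and *tim_up122* alone 435. These counts are not a measure of how different each set of strains is, since the sets have 12 and 24 libraries.

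*tim* had an amplitude of 2.05 in *yw*, against 1.003 in the 4 strains together (adjusted p = 0.0145), and 0.60, 1.05, 1.45 and 1.44 in *tim_up126*, *tim_up122*, *tim_up10* and *tim_in24* alone. *vri* had 1.82 in *yw* against 0.80 in the strains (adjusted p = 0.013), *Pdp1* 1.07 against 0.52 (adjusted p = 0.00515) and *per* 1.49 against 0.87 (adjusted p = 0.00786). *per* also peaked later in *yw*, at ZT14.9, against ZT12.2 in the strains together. Its *yw* peak was at ZT14.1 without ZT22 replicate 1 and at ZT13.8 without both libraries of the pair. Against *tim_up10* and *tim_in24* alone, *tim* (adjusted p = 0.303), *vri* (0.452), *Pdp1* (0.168) and *per* (0.189) did not pass. Against *tim_up126* and *tim_up122* alone all 4 passed (adjusted p of at most 0.0033). Against the 4 strains together, these 4 genes still differed without both libraries of the pair, with adjusted p of at most 0.0366. The call was lost for *tim* without ZT2 replicate 1 (0.0591), ZT6 replicate 1 (0.0559) or ZT6 replicate 2 (0.0548), and for *vri* without ZT2 replicate 1 (0.055). *cry* had an amplitude of 1.07 in *yw* against 0.61 in the strains (adjusted p = 0.0317), which was no longer past the threshold without ZT22 replicate 1 (adjusted p = 0.0743), ZT18 replicate 1 (0.192), ZT14 replicate 2 (0.0647) or ZT6 replicate 1 (0.0587). *Clk* (adjusted p = 0.0942), *CG31324* (0.063) and *cwo* (0.754) did not pass. *Usp8* differed mainly in phase, with ZT14.0 in *yw* against ZT10.2 in the strains (adjusted p = 0.000854), and it did so against *tim_up10* and *tim_in24* alone as well (adjusted p = 0.0246). *CG17005* had the smaller amplitude in *yw*, 1.70 against 2.70 in the strains (adjusted p = 0.0107), which was lost without ZT6 replicate 2 (0.0571) and without both libraries of the pair (0.235).

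By list, beside the 3.2% of all genes, 11 of 16 Bomanins and other immune-induced peptides differed, 8 without ZT22 replicate 1 and 1 without both libraries of the pair. Among 15 antimicrobial peptide genes 0 differed, and among 10 genes of peptidoglycan recognition proteins 1 did. Of 78 cytochrome P450 genes 16 differed, 12 without ZT22 replicate 1 and 4 without both, of 32 glutathione *S*-transferase genes 3, with 1 without both, and of 19 UDP-glycosyltransferase genes 2. *Cyp6g1* (adjusted p = 0.771) and *GstE9* (0.224) were among those that did not pass. *GstZ2* had 0.94 in *yw* against 0.30 in the strains (adjusted p = 0.00492), *Ugt35B1* 1.40 against 0.62 (adjusted p = 0.0124) and *Cyp18a1* 0.93 against 0.27 (adjusted p = 0.0037), and all 3 differed without both libraries of the pair. The call for *Ugt35B1* was lost without ZT14 replicate 1 (0.071) or replicate 2 (0.0878). *inaD* and *Hdc* had amplitudes of 0.97 and 0.78 in *yw*, 1.05 and 0.69 in *tim_up126* and 1.03 and 0.63 in *tim_up122*, with phases within 0.267 h of those in *yw*.

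The phases found in *yw* were also compared with each strain's own fit, as a description. Of the 1720 genes that passed in *yw*, the fitted peak lay within 4 h of the *yw* peak in 77.8% for *tim_in24*, 73.5% for *tim_up10*, 67.7% for *tim_up122* and 69.6% for *tim_up126*. Of the 735 genes that passed in all 4 versions these shares were 85.3%, 82.0%, 77.4% and 79.9%, and of genes that did not pass they were 44.6% to 45.9%. Lists differed in this. Phototransduction genes kept the *yw* phase in 13 to 16 of 16 cases in every strain, and 4 to 13 of the 16 passed in the strain's own test. Of the 53 respiratory chain genes, 51 had the *yw* phase in *tim_in24* and 47 in *tim_up10*, against 16 in *tim_up122* and 18 in *tim_up126*. In each strain 0 of the 53 passed. Their median amplitude was 0.197 in *tim_in24*, 0.141 in *tim_up10*, 0.069 in *tim_up122* and 0.056 in *tim_up126*, against 0.211 in *yw*. A phase fitted at so small an amplitude is loosely set, so these counts do not tell a shifted rhythm from a lost one. Of the 9 antimicrobial peptide genes, 9 had the *yw* phase in *tim_up10*, 4 in *tim_in24*, 2 in *tim_up122* and 1 in *tim_up126*, and 0 passed in any strain. Their median amplitude was 1.08, 0.58, 0.26 and 0.19 in these strains, against 1.27 in *yw*. Of 14 Bomanins and related peptides, 10 had the *yw* phase in *tim_up10*, 8 in *tim_in24*, 0 in *tim_up122* and 4 in *tim_up126*. In *tim_up122* 6 of the 14 passed, at a median amplitude of 0.44 over the 14, and in *tim_up126* 1, in the others 0. Heat shock genes kept the *yw* phase in 9 of 9 cases in both *tim_up122* and *tim_up126*, 7 of 9 in *tim_up10* and 4 of 9 in *tim_in24*. In these strains 7, 6, 1 and 0 of the 9 passed.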

How the data were processed

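RNA-seq of fly heads (poly(A) RNA, TRIzol, Illumina TruSeq) was used as the raw counts of reads for each gene that the authors deposited. Reads were mapped to dm6. The labels and the submitters' processing notes name STAR, SAMtools, featureCounts and DESeq2, the study's methods name Tophat and ESAT, and versions and strand setting are not given in the sources used here. A normalized signal, deposited by the authors beside the counts and scaled by a constant for each library, served only as an alternative. Positions are those of the Ensembl 115 annotation of the dm6 assembly (BDGP6.54), and 17063 of 17137 symbols matched a FlyBase gene ID. Genes with the same counts (210 among those tested) are 1 measurement.

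Tests used edgeR 4.0.16 under R 4.3.3. Genes were kept by filterByExpr and libraries scaled by TMM over all 47 libraries, which left 11027 genes. In the 11 *yw* libraries, a cosine and a sine of 24 h were tested together against a flat level by the quasi-likelihood F test, with Benjamini-Hochberg adjustment over all genes and a threshold of 0.05. Amplitudes, phases and standard errors came from least squares on log2 CPM (prior count 2), with errors by the delta method. The difference between *yw* and the 4 deletion strains was the interaction of both terms with strain group, with a mean per genotype. Genes named are the clock genes, the 10 with the smallest p, the 5 largest amplitudes of each 6-h window at a mean of at least 5 CPM, and up to 4 called genes per list. Other genes given with values, such as *ninaE*, *e*, *cyc* and the markers, were named to describe their group. The lists and the rule for the libraries were chosen with earlier results of these data known, and no list was tested as a set.

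Alternatives were other scalings (median of ratios, library totals), other filters, DESeq2 1.42.0, limma 3.58.1, other models of time, a replicate block and each library left out. In simulated data for the rhythm test on 11027 genes, 98 of 100 genes with an amplitude of 0.5 and 100 of 100 with an amplitude of 1 were recovered, with 8 false calls. For the difference from the deletion strains 92 of 100 and 100 of 100 were recovered, with 14 false calls. The simulated libraries were independent, had a common dispersion and exact cosines, and held no near-identical pair or split replicates. These counts therefore do not give the error rate in the real data. The labels call the replicates independent, and p-values measure the spread between these libraries. ZT18 replicate 1 and ZT22 replicate 1 entered as separate libraries, and whether they are independent samples was not tested. If they are not, p-values and standard errors that rest on both may be too small. Of 734 genes there was no count in any library, and of 1379 none in *yw*.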

Additional observations from a re-analysis of the deposited data

Results flagged for a closer look

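The 24 h rhythm of 27 named genes differed between *yw* and the 4 deletion strains by the test of the difference itself. Adjusted p-values below are from edgeR's quasi-likelihood test of the interaction, with Benjamini-Hochberg adjustment over all genes tested. Among clock genes these were *per* (0.00786), *tim* (0.0145), *vri* (0.013), *Pdp1* (0.00515) and *cry* (0.0317), all with the larger amplitude in *yw*. *Usp8* (0.000854) differed mainly in phase, and *CG17005* (0.0107) had the smaller amplitude in *yw*. Among genes of detoxification, redox defence and hormone metabolism, *GstZ2* (0.00492), *GstD9* (0.00515), *GstE2* (0.00816), *Ugt35B1* (0.0124), *Ugt49C1* (0.00761), *Cyp18a1* (0.0037) and the glutathione synthesis gene *Gclm* (0.0369) had larger amplitudes in *yw*, with *Gclm* at 0.49 in *yw* against 0.20 in the strains. Named genes of these lists that did not pass include *Cyp6g1* (0.771), *Cyp6a21* (0.458), *Cyp305a1* (0.13), *GstE9* (0.224), *Ugt36F1* (0.547) and *Ugt36D1* (0.43). The immune genes *IM1* (0.0158), *IM3* (0.0024) and *PGRP-SB1* (0.00816) differed with larger amplitudes in *yw*, with *PGRP-SB1* at 0.95 in *yw* against 0.11 in the strains. Named immune genes that did not pass include *Dro* (0.19), *DptA* (0.279), *AttC* (0.23), *AttB* (0.52), *IM18* (0.282) and *CG5791* (0.0624). *PGRP-SC2* (0.517), *PGRP-LC* (0.93) and *PGRP-LF* (0.296) did not pass either. *cyr* (0.0145) differed with the larger amplitude in *yw*, with 1.82 against 1.04.

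Genes of metabolism were *Hn* (0.00772), *Mal-A8* (0.00398), *Mal-B2* (0.0241), *Pepck1* (0.04), *AcCoAS* (0.0499) and *Cyt-c1* (0.0185). The *Mal-A8* difference rested on ZT14 replicate 2, without which the adjusted p was 0.611 and the amplitude in *yw* minus that in the strains -0.1629. *Pepck1* had amplitudes of 0.61 in *yw* and 0.46 in the strains, with peaks at ZT6.58 in *yw* and ZT23.0 in the strains. *CG43920* (0.0289), *Mdr50* (0.0317) and *CG16826* (0.0331) had amplitudes of 2.04, 1.42 and 4.48 in *yw* and 0.25, 0.28 and 0.50 in the strains.

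Without ZT22 replicate 1 the difference was no longer past the threshold for *cry* (0.0743), *CG43920* (0.0768), *Mdr50* (0.141), *CG16826* (0.0551), *Mal-B2* (0.0551), *Pepck1* (0.139), *AcCoAS* (0.0671) and *Cyt-c1* (0.0504). Without both libraries of the near-identical pair it was also lost for *CG17005* (0.235), *Hn* (0.2), *IM1* (0.0981), *IM3* (0.0976), *GstD9* (0.0638) and *GstE2* (0.0706). Leaving out 1 *yw* library ended the call for *tim* (0.0591 without ZT2 replicate 1), *vri* (0.055 without ZT2 replicate 1), *cyr* (0.0883 without ZT6 replicate 2), *Gclm* (0.306 without ZT14 replicate 2), *Ugt35B1* (0.0878 without ZT14 replicate 2), *IM1* (0.0604 without ZT6 replicate 1), *CG17005* (0.0571 without ZT6 replicate 2) and *Hn* (0.0505 without ZT18 replicate 1), and for *Mdr50* (0.0871), *CG16826* (0.0843), *Mal-B2* (0.102) and *AcCoAS* (0.173) without ZT6 replicate 2. The near-identity of *yw* ZT18 replicate 1 and ZT22 replicate 1 is itself a result to look at again. Without both, 810 genes were rhythmic, fewer than under any choice of scaling, filter or tool. Leaving out both also removes 2 libraries and the only one of ZT18, so this fall cannot be assigned to the near-identity. Without both ZT22 libraries, which are not near-identical, the count was 1002. Groups had 2 libraries at most, so single libraries were not tested for lying apart from their group.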

How the results depend on the processing

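The number of genes with a rhythm in *yw*, 1720 with all 11 libraries, ran from 1256 to 1752 when 1 library was left out. It was 1002 without both ZT22 libraries and 810 without ZT18 replicate 1 and ZT22 replicate 1 together (both alternatives were chosen after seeing the data), 731 with time as 6 levels, which spends more degrees of freedom, and 1086 with 24 h and 12 h terms together. It was 1650 to 1711 with library totals, median-of-ratios scaling or a filter on the *yw* libraries alone, 1694 with a minimum mean of 1 CPM, 2160 with no filter, 1812 by DESeq2, 1594 by limma, 1580 on the deposited signal and 1803 with all 47 libraries in 1 fit. The number whose rhythm differed from the deletion strains, 353, ran from 193 (without ZT6 replicate 2) to 419 when 1 library was left out, with 233 without ZT6 replicate 1. It was 233 without both ZT22 libraries, 144 without ZT18 and ZT22 replicate 1 together, 16 against *tim_up10* and *tim_in24*, and 435 against *tim_up126* and *tim_up122*. It was 357 to 394 under other scalings, no filter or DESeq2. With the replicate number as a block, 1822 genes had a rhythm and 368 differed. The deviations of same-numbered libraries correlated between -0.262 and 0.445, with 3 of 10 above 0.1, so the numbers were not taken to pair the samples. Of the 142 named genes, 18 were no longer past the threshold without ZT22 replicate 1, 17 without ZT18 replicate 1, 37 without both and 45 with 6 levels. Directions turned in 5 cases. With 1 library left out, the amplitude ran from 0.0583 to 1.0058 for *Mal-A8* and from 0.2217 to 1.1321 for *Mal-A7*, and the *Mal-A8* amplitude in *yw* minus that in the strains from -0.1629 to 0.7846. In each the lowest value, with the direction or phase turned, came without ZT14 replicate 2 and the highest without ZT14 replicate 1. Against *tim_up10* and *tim_in24* alone the amplitude difference was -0.0273 for *per* and -0.2036 for *Usp8*. The cause was not tested in any of these. At these depths a rhythm in a gene under about 1 CPM could not be followed.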
